A study of Saccharomyces cerevisiae with 33 samples.

Results

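The *ATG* genes of the budding yeast Saccharomyces cerevisiae, which are named for autophagy, were followed across all arrays of a study of phospholipid regulators in chemostat cultures. A gene was taken as a member when a probe set of the array was annotated with it alone and its symbol was *ATG* followed by a number. This gave 34 genes of 5449 tested, each measured by 1 probe set. The gene table of the reference annotation holds 37 such symbols, and the other 3, *ATG42*, *ATG44* and *ATG45*, were not analysed here. Genes of the pathway that carry another symbol in that table, such as *VPS30* (Atg6) and *SNX4* (Atg24), were counted in a separate list.

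The 33 arrays fall into 11 groups of 3 replicates, 15 of them N-limited and 18 C-limited. The N-limited groups are *opi1*Δ, *ino2*Δ, *ino4*Δ, *ino2*Δ*ino4*Δ and the reference, and the C-limited groups are *opi1*Δ at maximum CO2, *opi1*Δ at minimum CO2, *ino2*Δ, *ino4*Δ, *ino2*Δ*ino4*Δ and the reference. The reference is the prototrophic haploid strain CEN.PK113-7D of mating type a, and each mutant is 1 strain derived from it in which a loxP-flanked kanamycin marker replaced the gene. Ino2 and Ino4 together activate phospholipid genes and Opi1 represses them, so the study compared strains with more and with less of this activator under both limitations. All strains grew aerobically on minimal medium with inositol and choline at a fixed dilution rate. The C-limited *opi1*Δ cultures oscillated and were sampled at the top and at the bottom of their CO2 profile, and the bottom served as the C-limited *opi1*Δ group in comparisons with N-limitation. The study made this choice and left out the top, because its respiratory quotient was higher than in the other C-limited strains. The study describes its physiological values for these cultures as coming from biological replicates. For the arrays no label says that the 3 replicates of a group came from separate cultures, so p-values measure the spread between arrays, which may in part be technical.

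In autophagy a cell encloses a portion of its cytoplasm in a membrane vesicle, the autophagosome, which fuses with the vacuole, where the content is broken down and reused. The Atg1 kinase complex starts the process, Atg9 vesicles and a lipid kinase build the membrane, a pair of ubiquitin-like conjugation systems attaches Atg8 to it, and receptors tie chosen cargo such as mitochondria, peroxisomes or endoplasmic reticulum to Atg8. Nitrogen starvation is the classical trigger in yeast, acting through the TORC1 kinase, which holds the Atg1 complex inactive in fed cells. The same machinery runs the Cvt route, which carries hydrolases to the vacuole in growing cells.

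Levels are log2 PLIER signals, 1 per probe set and array, as deposited by the authors. Differences between groups are given as log2 differences ± the standard error of the limma model over all 33 arrays, and the words changed, rose, fell and called stand only for an adjusted p under 0.01 (Benjamini-Hochberg over 5449 genes). Signals of different probe sets were not compared with each other. In arrays of whole cultures a change in RNA per cell and a change in the share of cells that express a gene cannot be told apart.

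The labels were checked against the deleted genes. *OPI1* was below the background level, a log2 signal of 5.47 under which 95% of the probe sets for genes of other organisms lie, in every array of *opi1*Δ. *INO2* gave a weaker check, since it was not called lower in N-limited *ino2*Δ than in the N-limited reference. In C-limited *ino2*Δ*ino4*Δ at most 1 of the deleted genes was called lower than in the reference. Under C-limitation 4 arrays did not match their labels: *INO4* was at background in *ino2*Δ replicates 2 and 3, *INO2* was at background in *ino4*Δ replicate 3, and *INO4* was well above it in *ino2*Δ*ino4*Δ replicate 1, at 6.64 against 5.09 and 5.15 in the other replicates. Apart from these, 5 arrays deviated together from the rest of their groups: replicate 1 of the N-limited reference, replicates 1 and 3 of *opi1*Δ at minimum CO2 and replicates 1 and 3 of N-limited *ino2*Δ*ino4*Δ. *HAC1*, the transcription factor gene of the unfolded protein response, differed in these arrays by -3.25 in the N-limited reference, -2.99 at minimum CO2 and -3.23 in *ino2*Δ*ino4*Δ. In these 5 arrays 5 members were lower and 7 higher by more than 0.3 in each of the 3 groups, a count that was not made for all genes. *ATG1* was among the lower ones, at 6.27 against 7.23 in the other arrays of the N-limited reference, 6.51 against 7.61 at minimum CO2 and 6.23 against 7.24 in *ino2*Δ*ino4*Δ. *ATG22*, the vacuolar amino acid exporter, was lower there too, and *ATG17*, *ATG21* and *ATG38* were higher there. Their part in the results was not tested beyond the values without these arrays, given below. The closest pair of arrays, *ino2*Δ replicates 2 and 3 under C-limitation, differed by an SD of 0.043 over all genes and shared no identical value, so both were kept.

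Across the 11 groups the means of a member spanned 0.22 to 2.47 log2 units, with a median span of 0.97, against 0.83 for all genes. The span was over 2 for 4 members, *ATG34*, *ATG41*, *ATG39* and *ATG8*. C-limited *opi1*Δ at maximum CO2 was the lowest of the 11 groups for 23 of the 34 genes, a count that was not made for all genes. In 20 comparisons 28 members (82.4%) were called at least once, close to the 81.0% of all genes, and 6 were not: *ATG5*, *ATG15*, *ATG16*, *ATG22*, *ATG27* and *ATG29*. The signals of *ATG15*, *ATG16* and *ATG29* averaged below the background level, so changes in these 3 genes may not be detectable at this signal.

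**Figure D1:**
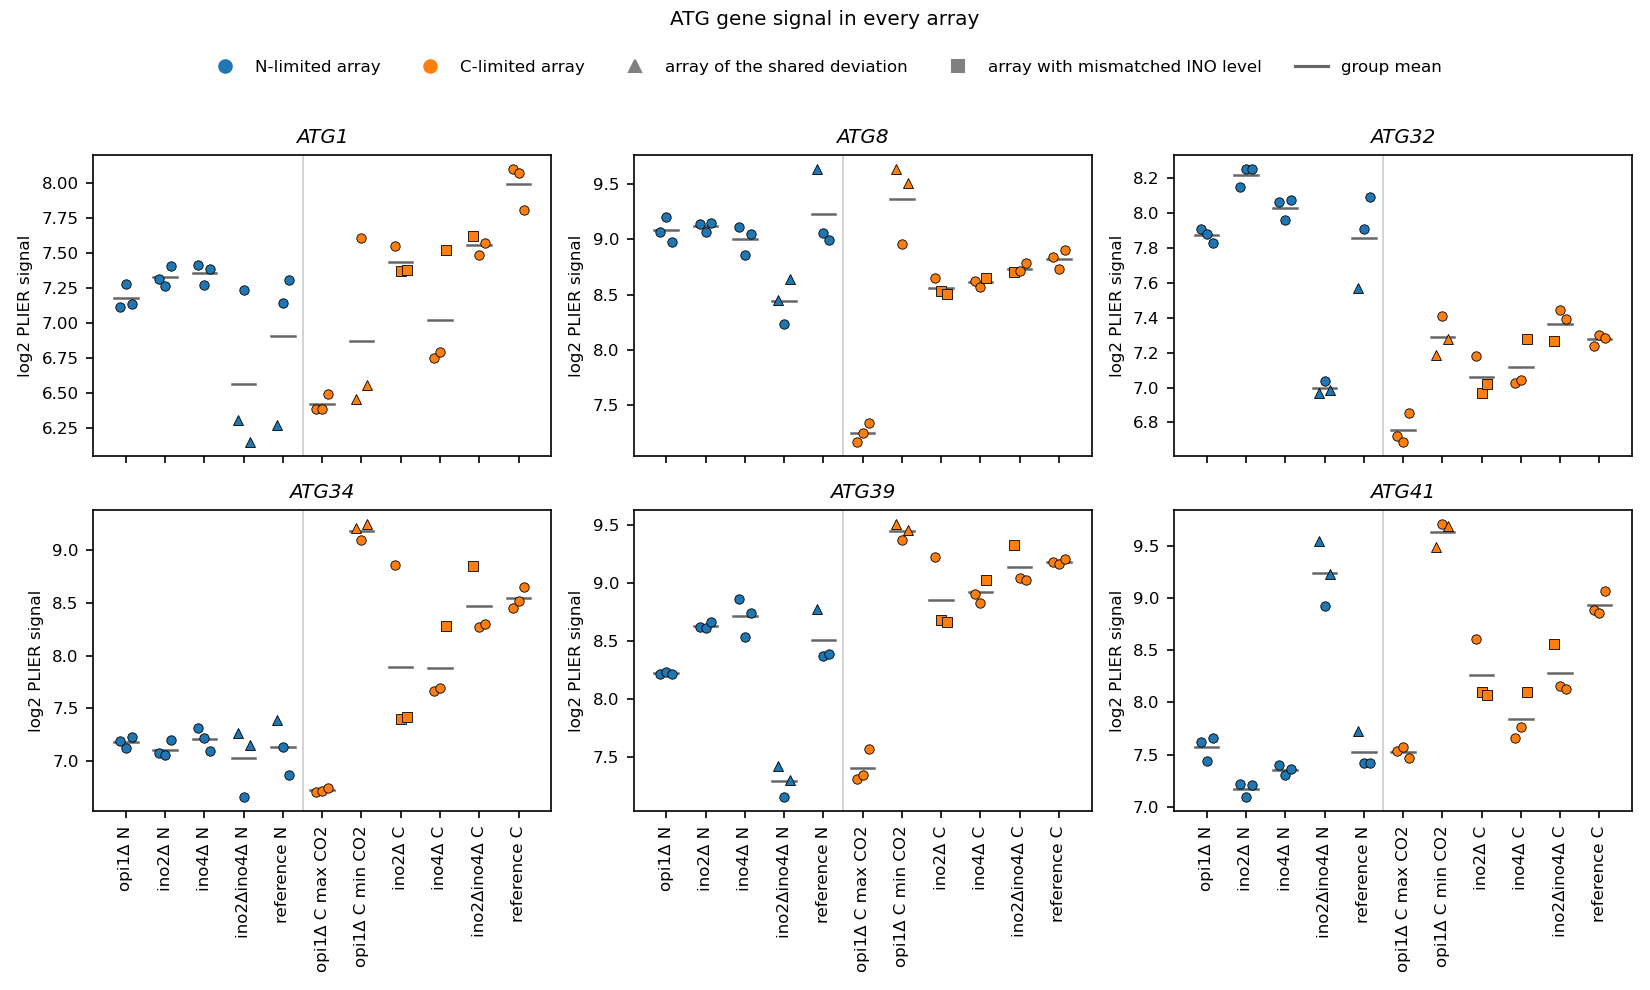
Log2 PLIER signal of 6 *ATG* genes in each array (points), with the group mean as a bar. N-limited groups stand on the left (blue) and C-limited groups on the right (orange), triangles mark the 5 arrays of the shared deviation and squares the 4 arrays whose *INO* signals did not match the label. *ATG8*, *ATG34* and *ATG39* are low at maximum CO2, where *ATG8* lies between 7.16 and 7.34, and *ATG41* is high in N-limited *ino2*Δ*ino4*Δ, at 8.92 to 9.55.

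Most *ATG* genes differed between both phases of the C-limited *opi1*Δ oscillation. The phases were compared as unpaired groups, although both may have been sampled from the same cultures. At maximum CO2, 24 of the 34 *ATG* genes were lower than at minimum CO2 and none was higher, where 17.0% of all genes were lower and 28.4% higher. With only these 2 groups in the fit 15 members were called, and with the methods' t-test 7, all lower. The median difference of the members was -0.61, against 0.10 over all genes. The split of all genes moved with the scaling, at 1549 higher and 924 lower in the deposited values, 1295 and 1142 with each array centred on its median and 1234 and 1128 after quantile normalisation, while no called *ATG* gene turned its direction. For 25 members all 3 arrays at maximum CO2 lay below all 3 at minimum CO2, as for 21.9% of all genes.

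*ATG8* (YBL078C), whose product is coupled to the growing membrane and sets how much of it forms, had log2 signals of 7.16, 7.25 and 7.34 at maximum CO2, against 9.64, 8.96 and 9.51 at minimum CO2. The groups lay far apart, and the fall was 4.34-fold (-2.12 ± 0.14, adjusted p = 1.4e-11). Of the 8 conjugation genes 4 fell. *ATG7*, which encodes the activating enzyme of both systems, fell by 1.17 ± 0.12. The ubiquitin-like modifier gene *ATG12* fell by 0.38 ± 0.10 and the Atg8 protease gene *ATG4* by 0.29 ± 0.08. The conjugating enzymes *ATG3* and *ATG10* differed by 0.11 ± 0.19 and 0.08 ± 0.14, and *ATG5*, the partner of Atg12, by 0.14 ± 0.15, none of which passed.

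Among the genes that start the process, 4 of 6 fell. *ATG13*, the regulatory subunit that TORC1 phosphorylates, was at 6.51, 6.56 and 6.67 at maximum CO2, against 7.18, 7.33 and 7.26 at minimum CO2 (-0.68 ± 0.07, adjusted p = 6.5e-09). *ATG31* and *ATG17*, which form the scaffold used in starvation, fell by 1.05 ± 0.15 and 0.90 ± 0.20, and *ATG11*, the scaffold of selective autophagy, fell by 0.67 ± 0.10. The kinase gene *ATG1* itself gave no call. Its signals were 6.39, 6.39 and 6.50 at maximum CO2, against 6.46, 7.61 and 6.56 at minimum CO2, so that replicate 2 of minimum CO2 stood alone (-0.45 ± 0.27, adjusted p = 0.156).

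Genes of membrane supply fell in 5 of 7 cases. *ATG9* (YDL149W), the membrane protein that seeds the vesicle, was at 5.77, 5.71 and 5.78 at maximum CO2, against 6.45, 6.43 and 6.23 at minimum CO2 (-0.62 ± 0.10). *ATG41* (YPL250C), which binds Atg9 and is needed for vesicle formation, was at 7.54, 7.57 and 7.47 at maximum CO2, against 9.48, 9.71 and 9.69 at minimum CO2. The fall of *ATG41* was 4.29-fold (-2.10 ± 0.15), and its groups did not overlap. *ATG23*, which helps Atg9 leave the Golgi, fell by 1.03 ± 0.15, and the phosphoinositide-binding genes *ATG21* and *ATG18* fell by 0.91 ± 0.16 and 0.26 ± 0.06. Both subunits specific to the autophagy lipid kinase fell. *ATG38* was at 6.43, 6.48 and 6.12 at maximum CO2, against 7.74, 7.08 and 7.76 at minimum CO2 (-1.18 ± 0.22). *ATG14* was at 5.44, 5.43 and 5.44 at maximum CO2, at or under background in all 3 arrays, against 6.48, 5.8 and 6.48 at minimum CO2. Set against the background level it was at least 1.72-fold lower, with the higher of background and signal taken for each array (adjusted p = 4.7e-05).

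All 9 genes of selective autophagy fell. *ATG34* (YOL083W), a cargo receptor for alpha-mannosidase in starved cells, fell most of all members: 6.70, 6.72 and 6.74 at maximum CO2, against 9.21, 9.10 and 9.25 at minimum CO2, 5.53-fold (-2.47 ± 0.25, adjusted p = 1.5e-08). *ATG39* (YLR312C), the receptor for the nuclear envelope and the endoplasmic reticulum around it, was at 7.31, 7.35 and 7.57 at maximum CO2, against 9.51, 9.38 and 9.46 at minimum CO2 (-2.04 ± 0.13). *ATG40*, the receptor for the peripheral endoplasmic reticulum, fell by 1.01 ± 0.15. The Cvt receptor gene *ATG19* was at 7.02, 7.06 and 6.83 at maximum CO2, against 7.75, 7.95 and 7.87 at minimum CO2 (-0.88 ± 0.12). Smaller falls were those of *ATG33* (mitophagy, 0.80 ± 0.23), *ATG36* (the pexophagy receptor, 0.60 ± 0.17), *ATG20* (a sorting nexin, 0.52 ± 0.09) and *ATG26* (sterol glucosyltransferase, 0.51 ± 0.10). *ATG32* (YIL146C), the mitophagy receptor, was at 6.73, 6.69 and 6.85 at maximum CO2, against 7.18, 7.41 and 7.28 at minimum CO2 (-0.54 ± 0.10). The vacuolar genes *ATG15* (a lipase) and *ATG22* differed by 0.07 and -0.24, and neither passed.

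**Figure D2:**
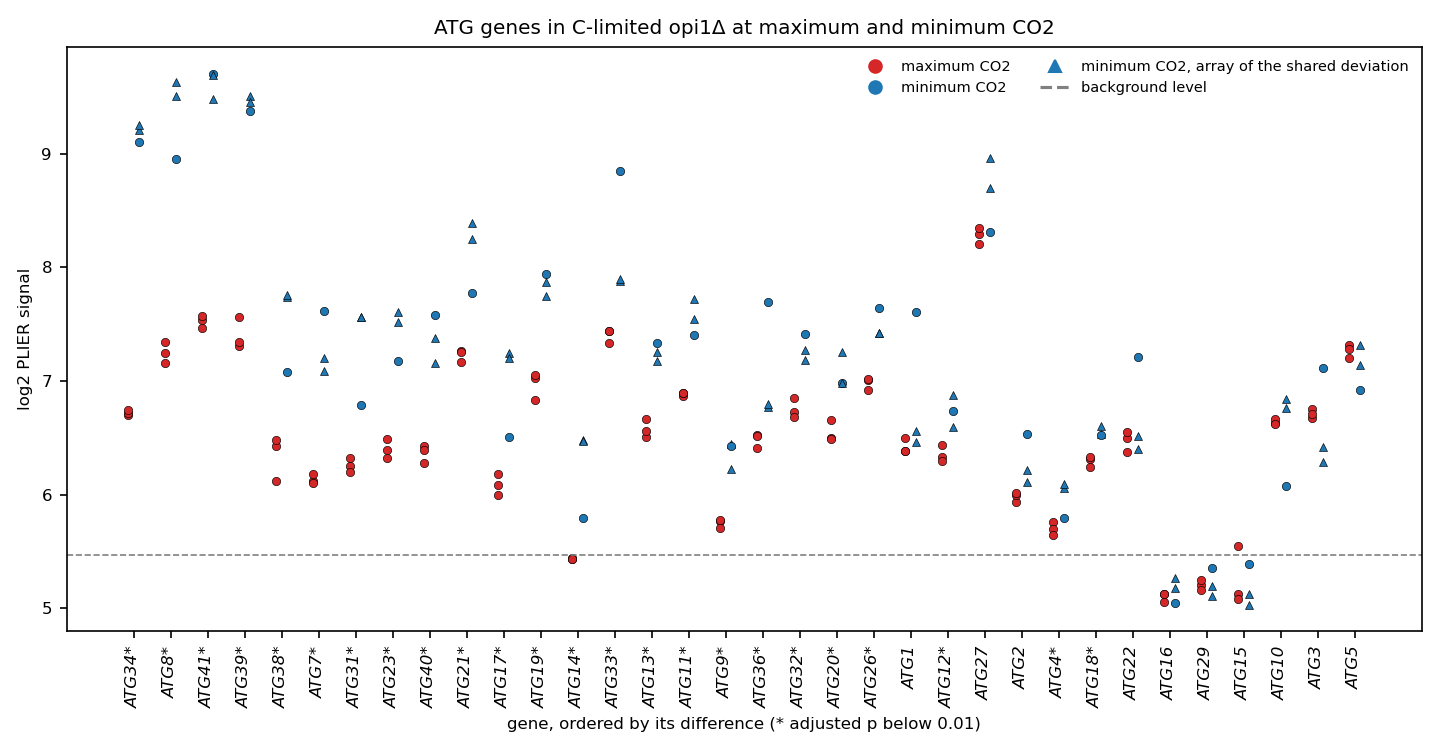
Log2 PLIER signal of the 34 *ATG* genes in each array of C-limited *opi1*Δ at maximum CO2 (red) and minimum CO2 (blue), with genes ordered by their difference and an asterisk at an adjusted p below 0.01. Triangles are minimum-CO2 replicates 1 and 3, and the dashed line is the background level of 5.47; in 25 genes the red points lie wholly below the blue ones.

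The minimum-CO2 group was uneven, since 2 of its 3 arrays belong to those that deviate together. Without the 5 deviating arrays, which leaves 1 array at minimum CO2 that is assumed to vary like the other groups, 25 members were lower and 1 higher. *ATG4*, *ATG17* and *ATG18* were then no longer called (-0.10, -0.42 and -0.23), while *ATG31* fell by 0.53, *ATG33* by 1.44 and *ATG36* by 1.21. *ATG1* was then called (-1.18), with *ATG2*, *ATG3* and *ATG22*, and *ATG10* was the gene that rose (0.57). Leaving out single arrays gave 19 to 23 calls. The calls of *ATG33* and *ATG36* were lost without any 1 of the maximum-CO2 arrays or without minimum-CO2 replicate 2, and those of *ATG4*, *ATG12* and *ATG18* without maximum-CO2 replicate 3. The call of *ATG4* was also lost without minimum-CO2 replicate 1 or 3, and that of *ATG12* without maximum-CO2 replicate 2 or minimum-CO2 replicate 3. Against the C-limited reference, a comparison that uses the same maximum-CO2 arrays, *opi1*Δ at maximum CO2 was lower in 19 members and higher in none (background 13.7% lower, 17.5% higher), with a median of -0.51. The falls against the reference were led by *ATG34* (-1.82 ± 0.25), *ATG39* (-1.78 ± 0.13) and *ATG8* (-1.57 ± 0.14), whose reference arrays were at 8.45, 8.52 and 8.66, at 9.18, 9.16 and 9.21, and at 8.84, 8.73 and 8.90. Leaving out single arrays gave 15 to 18 calls, and *ATG4*, *ATG23*, *ATG26* and *ATG31* were those lost in 1 or more of these fits. *ATG1* fell by 1.57 ± 0.27 in this comparison, and its reference arrays stood at 8.10, 8.07 and 7.81, above those of every other group. Here too all 9 genes of selective autophagy fell, while both lipid kinase subunits missed the threshold, *ATG38* at -0.64 ± 0.22 and *ATG14* with no array at maximum CO2 above background.

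Between *opi1*Δ at minimum CO2 and the C-limited reference 3 *ATG* genes were called, near the share of all genes. *ATG41* rose (0.69 ± 0.15) and so did *ATG13* (0.25 ± 0.07), *ATG1* fell by 1.12 ± 0.27, and 31 members gave no call, where 3.25% of all genes were higher and 4.48% lower. *ATG41* was at 9.48, 9.71 and 9.69 at minimum CO2, against 8.88, 8.85 and 9.07 in the reference. *ATG1* was low in minimum-CO2 replicates 1 and 3, at 6.46 and 6.56, while replicate 2 was at 7.61. Without the 5 deviating arrays *ATG1* was at -0.39 and was not called. Leaving out minimum-CO2 replicate 2 gave 13 calls, leaving out minimum-CO2 replicate 3 or reference replicate 1 or 2 gave 0, and reference replicate 3 gave 1. Over all genes 177 were higher and 244 lower in the deposited values, against 318 and 188 with arrays centred on their medians and 331 and 176 after quantile normalisation.

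The comparison of the limitations set a steady shortage of nitrogen against a steady shortage of carbon. No group was short of neither, so a fall under N-limitation cannot be told apart from a rise under C-limitation, or the reverse. In the reference, 3 members were higher and 7 lower under N-limitation than under C-limitation, where 14.7% of all genes were higher and 8.61% lower, and the median of the members was -0.01, against 0.06 over all genes. With only these 2 groups in the fit 3 members were called, and likewise 3 with the methods' t-test. Over the mean of the 5 strains, 4 were higher and 9 lower (background 28.4% higher, 17.4% lower). In the reference the genes that fell were 4 of 9 in selective autophagy, 2 of 7 in membrane supply and *ATG1*, while none of the 8 conjugation genes was called. The mean over 5 strains includes the reference arrays.

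*ATG34* was at 7.39, 7.13 and 6.86 in the N-limited reference, against 8.45, 8.52 and 8.66 in the C-limited one. It fell 2.67-fold (-1.42 ± 0.25, adjusted p = 8.8e-05), and by 1.27 ± 0.11 over the 5 strains, in each of which it was lower. *ATG41* was at 7.73, 7.42 and 7.42 under N-limitation, against 8.88, 8.85 and 9.07 under C-limitation in the reference (-1.41 ± 0.15). *ATG36* (YJL185C) was at 6.55, 6.47 and 6.55 under N-limitation, against 7.60, 7.64 and 7.69 under C-limitation, with no overlap and hardly any spread (-1.12 ± 0.17). *ATG33* (YLR356W) was at 7.19, 7.82 and 8.03 under N-limitation, against 8.68, 8.66 and 8.79 under C-limitation (-1.03 ± 0.23), and without its lowest array, replicate 1, it was no longer called. *ATG1* was at 6.27, 7.14 and 7.31 under N-limitation, against 8.10, 8.07 and 7.81 under C-limitation, and this fall of 1.08 ± 0.27 was likewise lost without N-limited replicate 1, and without C-limited replicate 1 or 2. Without all 5 deviating arrays *ATG1* (-0.77) and *ATG33* (-0.78) both passed. *ATG39* and *ATG23* fell by 0.67 ± 0.13 and 0.59 ± 0.15, and the call of *ATG23* was lost without replicate 2 or 3 of either group.

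The mitophagy receptor and sterol glucosyltransferase genes rose. *ATG32* was at 7.57, 7.91 and 8.09 in the N-limited reference, against 7.24, 7.30 and 7.28 in the C-limited one (0.58 ± 0.10, adjusted p = 4.1e-05). *ATG26*, whose role in pexophagy is known from the yeast Komagataella, rose by 0.68 ± 0.10. *ATG13* rose by 0.25 ± 0.07, with arrays at 7.22, 7.26 and 7.28 under N-limitation, against 7.0, 7.04 and 6.98 under C-limitation, a call lost without N-limited replicate 2 or 3 or C-limited replicate 1 or 3, with arrays centred on their medians and after quantile normalisation. Of the other key genes, *ATG8* was at 9.63, 9.06 and 9.0 under N-limitation, against 8.84, 8.73 and 8.90 under C-limitation. All N-limited arrays of *ATG8* were higher, but the difference of 0.41 ± 0.14 missed the threshold (adjusted p = 0.0284). *ATG9* (-0.14 ± 0.10), *ATG14* (0.29 ± 0.15) and *ATG19* (0.19 ± 0.12) did not pass either.

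Over the 5 strains, 8 members kept 1 direction in every strain, a count that was not made for all genes. *ATG23*, *ATG33*, *ATG34*, *ATG36* and *ATG39* were lower, and *ATG13*, *ATG18* and *ATG26* higher, though *ATG18* did not pass (0.09). Besides these, *ATG3* (-0.34 ± 0.09), *ATG7* (-0.20 ± 0.05) and *ATG12* (-0.18 ± 0.05) of the conjugation systems fell over the mean of the strains. Each of these genes was called lower in 1 of the 5 strains and was higher, without a call, in 1. *ATG19* rose (0.23 ± 0.06), a call lost without the 4 arrays of mismatched *INO* levels (0.21, adjusted p = 0.0124). *ATG19* and *ATG34* encode related receptors that both carry alpha-mannosidase to the vacuole, and over the mean of the 5 strains *ATG34* fell while *ATG19* rose. Within the strains *ATG19* was called higher in 1, *opi1*Δ. In *ino2*Δ*ino4*Δ its mean was lower under N-limitation, at 7.85 against 8.09. *ATG41* fell by 0.82 ± 0.07 over the mean of the strains, yet it rose in 1 of the 5, *ino2*Δ*ino4*Δ.

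**Figure D3:**
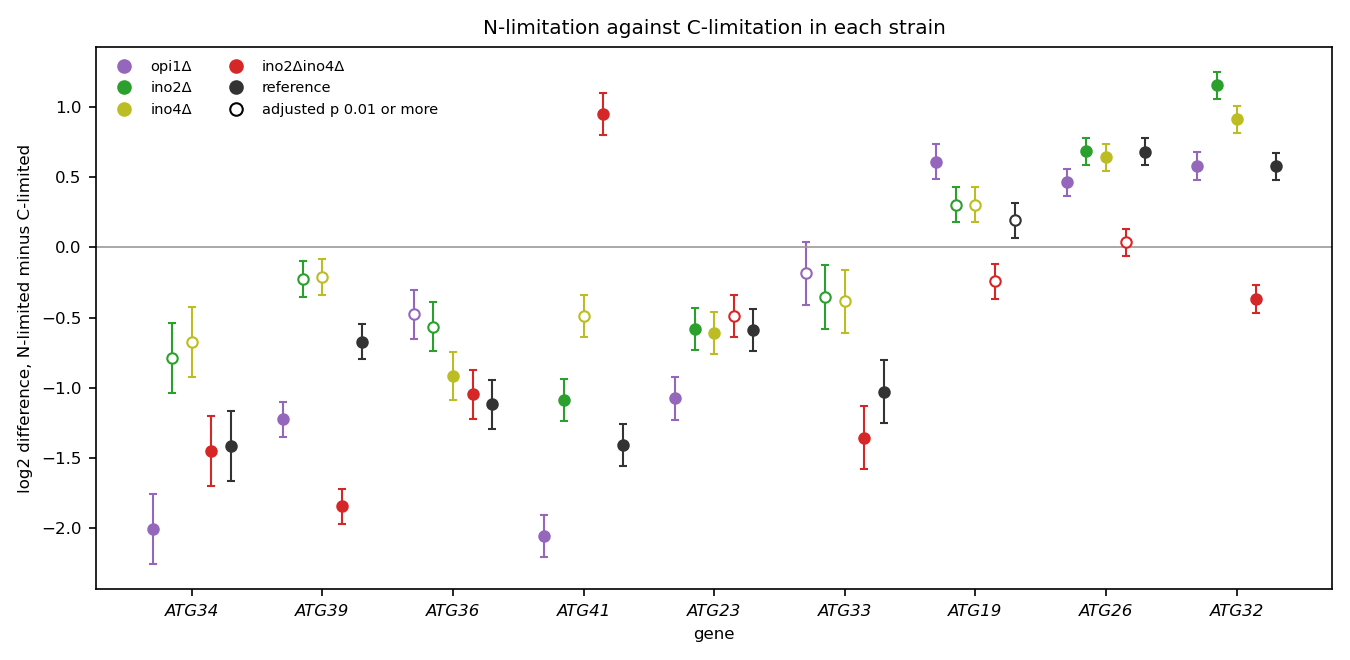
Log2 difference of N-limited minus C-limited arrays for 9 *ATG* genes in each of the 5 strains, with the standard error of the limma model as bars (3 arrays per group); filled points have an adjusted p below 0.01. In *ino2*Δ*ino4*Δ, *ATG41* lies at 0.95 and *ATG32* at -0.37, on the other side of 0 from the other 4 strains.

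Within the strains the calls differed in number. In *opi1*Δ 3 members rose and 6 fell (background 18.6% higher, 9.08% lower). *ATG41* fell, with arrays at 7.62, 7.44 and 7.66 under N-limitation against 9.48, 9.71 and 9.69 under C-limitation (-2.05 ± 0.15). *ATG34* was at 7.19, 7.13 and 7.23 under N-limitation, against 9.21, 9.10 and 9.25 under C-limitation (-2.01 ± 0.25), and *ATG39* at 8.22, 8.23 and 8.22, against 9.51, 9.38 and 9.46 (-1.23 ± 0.13). In all 3 genes the groups lay more than a log2 unit apart. *ATG23*, *ATG38* and *ATG12* fell by 1.08, 0.88 and 0.41, and the calls of *ATG38* and *ATG12* were lost without minimum-CO2 replicate 3 or N-limited replicate 2, that of *ATG38* also without minimum-CO2 replicate 1 or all 5 deviating arrays. *ATG19*, *ATG32* and *ATG26* rose by 0.61 ± 0.12, 0.58 ± 0.10 and 0.46 ± 0.10. Leaving out minimum-CO2 replicate 2, the 1 array of that group without the shared deviation, gave 20 calls in place of 9, and the methods' t-test gave 3. Over all genes 1012 were higher and 495 lower in the deposited values, against 820 and 669 with arrays centred on their medians and 778 and 662 after quantile normalisation.

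In *ino2*Δ 4 members rose and 2 fell (10.9% higher, 10.4% lower among all genes). *ATG32* was at 8.14, 8.25 and 8.25 under N-limitation, against 7.18, 6.97 and 7.02 under C-limitation (1.16 ± 0.10, adjusted p = 9.9e-10). Its rise in the reference was 0.58, and the difference between both strains did not pass (adjusted p = 0.0264). *ATG26* rose by 0.68 ± 0.10, with arrays at 8.17, 8.15 and 8.24 under N-limitation against 7.47, 7.53 and 7.51 under C-limitation, and *ATG41* fell by 1.09 ± 0.15, at 7.22, 7.09 and 7.21 against 8.61, 8.10 and 8.07. *ATG13* (0.40 ± 0.07) and *ATG8* (0.56 ± 0.14) also rose and *ATG23* fell by 0.58 ± 0.15. Without the 4 mismatched arrays, which include replicates 2 and 3 of C-limited *ino2*Δ, 2 members were higher and 4 lower: neither *ATG8* (0.47) nor *ATG13* (0.28) was called, while *ATG34* (-1.76) and *ATG39* (-0.60) were. With all arrays the call of *ATG8* was lost in 5 of the 6 fits that left 1 array out, all but that without C-limited replicate 1. The call of *ATG23* was lost without that array or any 1 of the N-limited arrays, and with only the compared groups in the fit 11 members were called.

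In *ino4*Δ 3 members rose and 2 fell (11.5% higher, 10.8% lower). *ATG32* was at 8.06, 7.96 and 8.07 under N-limitation, against 7.03, 7.04 and 7.28 under C-limitation (0.91 ± 0.10). *ATG36* was at 6.76, 6.65 and 6.6, against 7.57, 7.56 and 7.62 (-0.92 ± 0.17), and *ATG26* at 8.38, 8.18 and 8.22, against 7.60, 7.70 and 7.56 (0.64 ± 0.10). *ATG23* fell by 0.61 ± 0.15, and the groups of *ATG11*, which rose by 0.35 ± 0.10, overlapped. The call of *ATG11* was lost in 5 of the 6 fits that left 1 array out, all but that without C-limited replicate 3, and that of *ATG23* without C-limited replicate 3 or N-limited replicate 2 or 3. Without the 5 deviating arrays, none of which is in *ino2*Δ or *ino4*Δ, 11 members were called in *ino2*Δ and 13 in *ino4*Δ. With only the compared groups in the fit 3 were called in *ino4*Δ, and 2 with the methods' t-test.

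In *ino2*Δ*ino4*Δ 2 members were higher and 9 lower under N-limitation than under C-limitation (14.3% higher, 11.4% lower). *ATG39* was at 7.42, 7.15 and 7.30 under N-limitation, against 9.34, 9.05 and 9.03 under C-limitation, a fall of 3.59-fold (-1.85 ± 0.13). *ATG34*, at 7.26, 6.65 and 7.15 against 8.85, 8.27 and 8.30, fell by 1.45 ± 0.25, and *ATG33*, at 7.26, 7.61 and 6.68 against 8.73, 8.34 and 8.54, fell by 1.36 ± 0.23. *ATG36*, *ATG1*, *ATG3*, *ATG7*, *ATG9* and *ATG32* fell by 0.37 to 1.05, while *ATG41* rose by 0.95 ± 0.15 and *ATG10* by 0.56 ± 0.14. The calls of *ATG1*, *ATG3*, *ATG9*, *ATG10*, *ATG32* and *ATG41* were lost without the 5 deviating arrays, which leaves 1 N-limited array of this strain, and 7 members were then lower and none higher. The differences were then -0.32 for *ATG1*, -0.32 for *ATG3*, -0.10 for *ATG9*, 0.32 for *ATG10*, -0.33 for *ATG32* and 0.64 for *ATG41*, so that *ATG32* kept most of its size of -0.37 with all arrays. With only the compared groups in the fit 5 members were called, and 1 with the methods' t-test. Leaving out N-limited replicate 3 gave 6 calls, leaving out N-limited replicate 1 or C-limited replicate 1 gave 7, and leaving out N-limited replicate 2 gave 16.

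The difference between the strains in N against C was tested as the N-limited effect minus the C-limited effect of each deletion. For *ino2*Δ*ino4*Δ it was 2.36 ± 0.21 for *ATG41* (adjusted p = 1.2e-08), -1.17 ± 0.18 for *ATG39*, -0.95 ± 0.14 for *ATG32* and -0.64 ± 0.13 for *ATG26*, where 3.23% of all genes were higher and 4.37% lower. All 4 calls held without the 5 deviating arrays and without the 4 mismatched arrays. With the methods' t-test the calls of *ATG26* and *ATG32* were lost, and that of *ATG26* also with only the compared groups in the fit. For *ino4*Δ only *ATG41* differed (0.92 ± 0.21, adjusted p = 0.00771), where 1.25% of all genes were higher and 2.18% lower. This call was lost in 10 of the 12 fits that left 1 array out, all but those without N-limited reference replicate 1 or C-limited *ino4*Δ replicate 3. For *opi1*Δ and *ino2*Δ no member passed in limma, where 4.73% and 0.514% of all genes did in either direction. At an unadjusted p below 0.05, 18 members differed for *opi1*Δ and 8 for *ino2*Δ, and the t-test named in the methods called 0 in both. The share of all genes at this unadjusted limit was not computed, so the 18 and 8 cannot be set against the shares above. Without minimum-CO2 replicate 2, 12 members passed for *opi1*Δ (4 without N-limited reference replicate 3), and without replicate 1 of C-limited *ino2*Δ 3 passed for *ino2*Δ (1 without N-limited reference replicate 3). For *opi1*Δ the split of all genes was 157 higher and 101 lower in the deposited values, against 158 and 182 with arrays centred on their medians and 143 and 188 after quantile normalisation.

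Under N-limitation alone, *ino2*Δ*ino4*Δ was the 1 strain in which *ATG* genes passed the test against the reference, 3 higher and 6 lower (8.06% higher, 8.09% lower among all genes). With only these 2 groups in the fit 2 members were called, and the methods' t-test called 0, as it did in the other N-limited mutants. *ATG41* was at 9.55, 8.92 and 9.23 in *ino2*Δ*ino4*Δ, against 7.73, 7.42 and 7.42 in the reference, a rise of 3.27-fold (1.71 ± 0.15, adjusted p = 3.4e-09). *ATG39* was at 7.42, 7.15 and 7.30, against 8.78, 8.37 and 8.39 in the reference, and fell by 1.22 ± 0.13. *ATG32*, at 6.97, 7.04 and 6.99 against 7.57, 7.91 and 8.09, fell by 0.86 ± 0.10, and the groups of these genes did not overlap. *ATG8* was at 8.45, 8.23 and 8.64 in *ino2*Δ*ino4*Δ, against 9.63, 9.06 and 9.0 in the reference (-0.79 ± 0.14, adjusted p = 0.00015). Smaller falls were seen in *ATG26* (0.45 ± 0.10), *ATG7* (0.42 ± 0.12) and *ATG4* (0.32 ± 0.08). *ATG40* rose by 0.57 ± 0.15, although its arrays, at 8.30, 7.34 and 7.81 in *ino2*Δ*ino4*Δ against 7.18, 7.19 and 7.37 in the reference, overlapped. *ATG10* rose by 0.56 ± 0.14. Without the 5 deviating arrays, which leaves 1 array of this strain, *ATG40* (0.06), *ATG10* (0.41) and *ATG4* (-0.32) did not pass, while *ATG41* (1.5), *ATG39* (-1.23), *ATG32* (-0.96), *ATG8* (-0.80), *ATG7* (-0.54) and *ATG26* (-0.51) did, and *ATG19* was then called as well (-0.43). Leaving out replicate 3 of *ino2*Δ*ino4*Δ gave 5 calls in place of 9, and *ATG41*, *ATG39*, *ATG32* and *ATG8* were called whichever 1 array was left out. The call of *ATG7* was lost in 4 of these 6 fits and with a replicate block, a constant of 16 added or dim genes left out.

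In the other N-limited mutants no *ATG* gene passed in limma. The background was 2.53% of all genes in either direction for *opi1*Δ, 0.606% for *ino2*Δ and 0.551% for *ino4*Δ. At an unadjusted p below 0.05 there were 3, 2 and 4 members in these strains, a limit at which the share of all genes was not computed. *ATG8*, as an example, was at 9.07, 9.20 and 8.97 in *opi1*Δ, at 9.14, 9.07 and 9.14 in *ino2*Δ and at 9.11, 8.86 and 9.05 in *ino4*Δ, against 9.63, 9.06 and 9.0 in the reference, so that each of the 3 strains overlapped with it. The smallest adjusted p of these 3 strains was that of *ATG32* in *ino2*Δ (0.0701), and 1 member passed there without reference replicate 3.

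Under C-limitation *ino4*Δ was the only *ino* mutant in which *ATG* genes passed against the reference. In *ino4*Δ *ATG41* fell by 1.09 ± 0.15, with arrays at 7.66, 7.77 and 8.10 against 8.88, 8.85 and 9.07, *ATG1* fell by 0.97 ± 0.27, with arrays at 6.75, 6.79 and 7.52 against 8.10, 8.07 and 7.81, and *ATG2*, the lipid transfer protein, rose by 0.46 ± 0.11, with arrays at 6.87, 6.95 and 6.49 against 6.21, 6.34 and 6.38. In all 3 genes replicate 3, which lacked *INO2* signal, was the array nearest to the reference. The background was 6.64% higher and 6.74% lower, and 6 members passed without the 4 mismatched arrays. The calls of *ATG1* and *ATG2* were lost without *ino4*Δ replicate 1 or 2 or reference replicate 1 or 2, and that of *ATG1* also without reference replicate 3. In *ino2*Δ and *ino2*Δ*ino4*Δ no member passed in limma (0.826% and 0.569% of all genes in either direction) or in the methods' t-test. An unadjusted p below 0.05 was seen for 7 and 1 members, a limit at which the share of all genes was not computed. Both groups hold mismatched arrays, and 3 members passed without *ino2*Δ replicate 1 and 1 without *ino2*Δ*ino4*Δ replicate 1. *ATG34* was at 8.86, 7.40 and 7.42 in *ino2*Δ and at 8.85, 8.27 and 8.30 in *ino2*Δ*ino4*Δ. In both groups replicate 1, which carried *INO4* signal, was the highest. In *ino4*Δ *ATG34* was at 7.67, 7.69 and 8.28. A link of *ATG* levels to *INO2* or *INO4* signal was not tested.

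**Figure D4:**
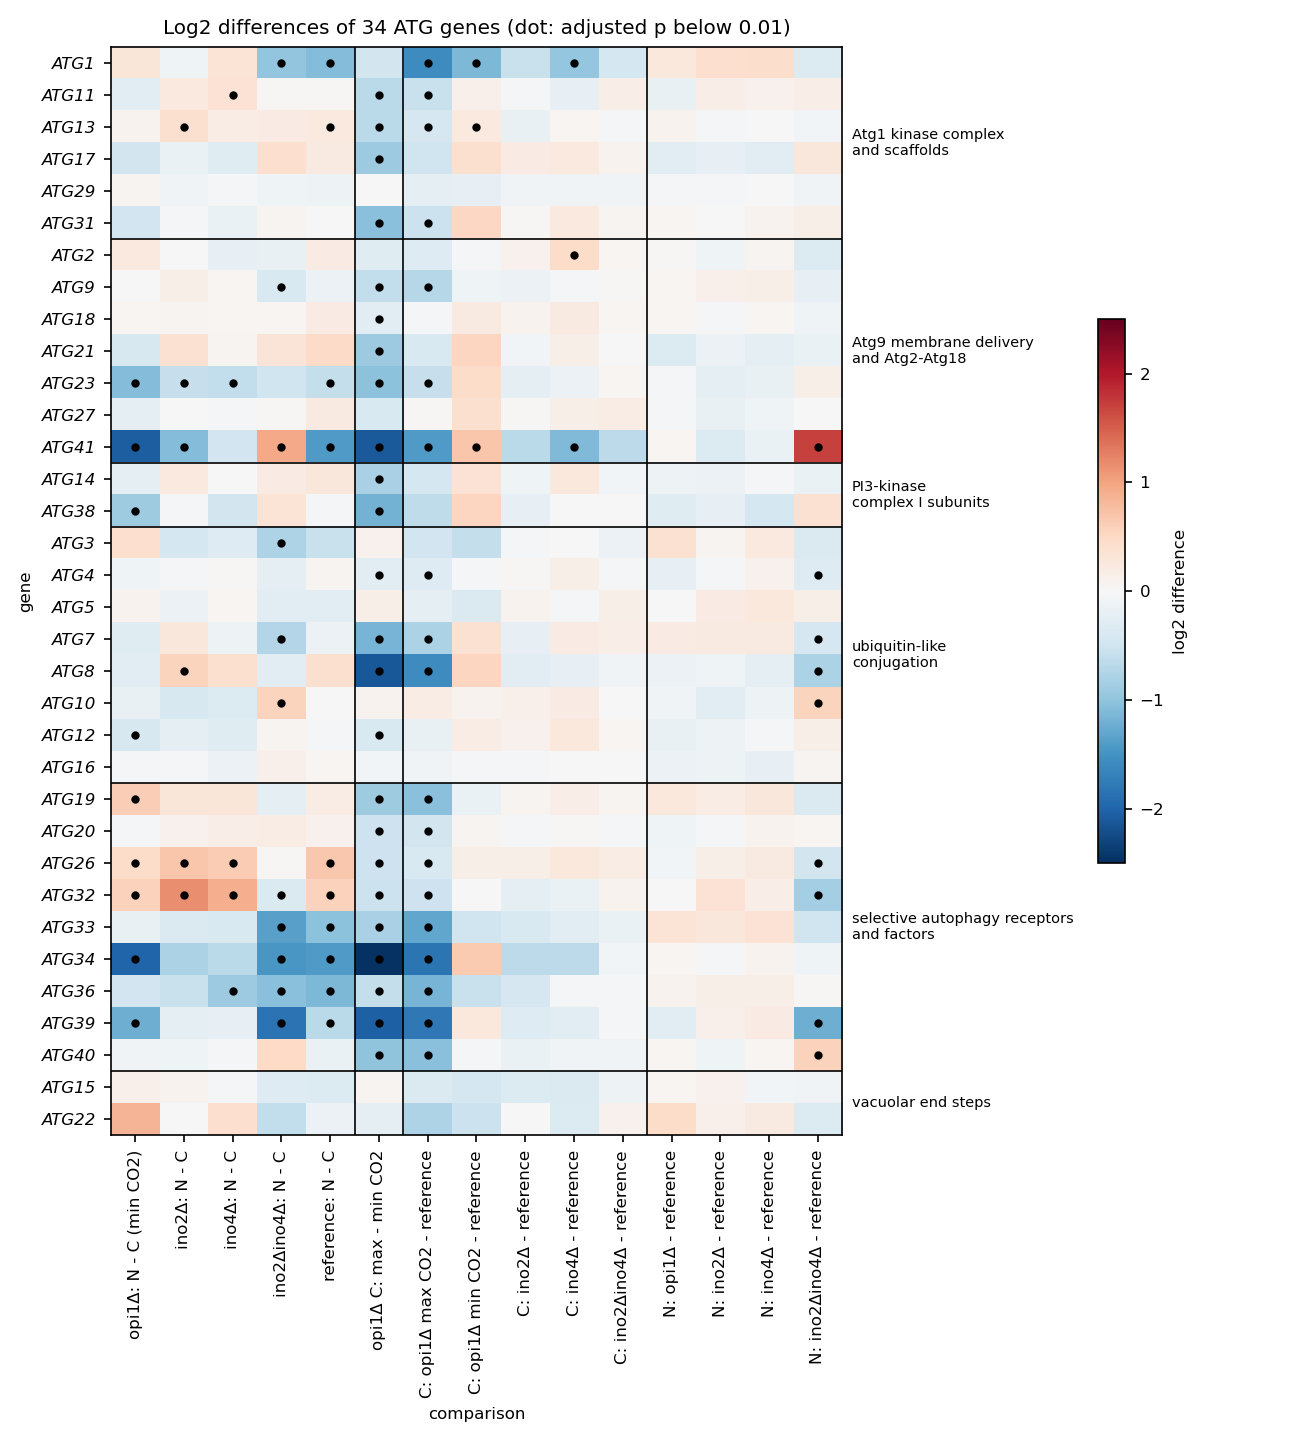
Log2 differences of the 34 *ATG* genes, grouped by role (vertical), in 15 comparisons of 2 groups (horizontal, first-named minus second-named), with a dot where the adjusted p is below 0.01. The column of maximum against minimum CO2 in C-limited *opi1*Δ holds 24 dots, all in blue for lower values, while the columns of N-limited *opi1*Δ, *ino2*Δ and *ino4*Δ against the reference hold none.

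Genes around the *ATG* set were counted in 4 further lists, to be read against the shares of all genes called. In the reference N against C these were 14.7% higher and 8.61% lower. Under N-limitation in the reference, 4 of 9 measured genes of vacuolar hydrolases and Cvt cargo rose and 1 fell. The carboxypeptidase gene *CPS1* (2.62 ± 0.18) and the phosphatase gene *PHO8* (1.23 ± 0.12) were among those that rose, and *AMS1*, the alpha-mannosidase that Atg19 and Atg34 carry, fell by 1.53 ± 0.22. Of 21 genes of TORC1 and nutrient kinases 9 rose and 0 fell, led by *NPR3* (1.33 ± 0.12), whose product is part of a TORC1 inhibitor, the kinase gene *NPR1* (1.06 ± 0.17) and the TORC1 subunit gene *KOG1* (0.85 ± 0.08). Of 16 transcription regulators 5 rose, with *DAL80* (5.12 ± 0.21) and *GAT1* (1.22 ± 0.13), GATA factors of nitrogen control, and the stress factor *MSN4* (1.13 ± 0.13) in front. Of 18 partners without an *ATG* symbol 3 rose, near the share of all genes, among them the vacuolar GTPase gene *YPT7* (0.44 ± 0.09), and the fusion gene *VTI1* fell by 0.83 ± 0.16.

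At maximum CO2 in C-limited *opi1*Δ, where 17.0% of all genes were lower and 28.4% higher, 5 of 9 hydrolase and cargo genes were lower than at minimum CO2 and none higher, with *AMS1* (-2.17 ± 0.22), the carboxypeptidase Y gene *PRC1* (-1.46 ± 0.19) and *PEP4* (-1.18 ± 0.11) in front. Among the 18 partners 4 were lower, near the share of all genes, and 2 higher, with *SNX4*, the sorting partner of Atg20, at -1.06 ± 0.12, and the vacuolar fusion gene *VAM3* at 0.82 ± 0.13. The 21 genes of TORC1 and nutrient kinases were split, 3 higher and 3 lower, with *TPK3* (1.09 ± 0.11) and *SCH9* (0.97 ± 0.26) among the higher and *TPK2* (-0.90 ± 0.25) among the lower. Of the 16 regulators 2 rose and 0 fell, a smaller share than over all genes. Against the reference, N-limited *ino2*Δ*ino4*Δ was lower in 6 of 9 hydrolase and cargo genes and higher in 0 (8.09% lower and 8.06% higher over all genes), with *CPS1* at -2.98 ± 0.18. Of the regulators 7 fell and 0 rose, with *DAL80* at -3.77 ± 0.21 and *GAT1* at -1.24 ± 0.13, a count that includes the deleted *INO2* and *INO4*. Of the genes of TORC1 and nutrient kinases 5 fell and 0 rose, *NPR3* by 0.64 ± 0.12. Of the 18 partners 1, *VAM3*, fell by 0.49 ± 0.13, about the share of all genes.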

How the data were processed

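RNA of 33 chemostat samples was hybridised to Affymetrix Yeast Genome 2.0 arrays. The authors deposited 1 table of log2 values, PLIER signals of 10928 probe sets normalised over all arrays together, and the PLIER version is not given in the sources used here. The labels name FastRNA Pro RED for extraction and the methods name RNeasy. Array medians lay between 7.14 and 7.44, and precision is limited by having 3 arrays per group. Of the probe sets, 7244 were listed with 1 gene symbol, 1 with several and 3683 had no entry in the table used. After matching to RefSeq, 5498 paired with a yeast gene, 12 symbols were updated, and of several probe sets of a gene (47 genes) the one of highest mean was kept, which left 5449 genes.

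The members and gene lists were chosen with earlier results of these data known. limma 3.58.1 (R 4.3.3) was fitted with 1 coefficient per group over all arrays (22 residual degrees of freedom), with Benjamini-Hochberg adjustment and the threshold of 0.01 that the methods state, for 20 comparisons. Comparisons with the reference under 1 limitation share its 3 arrays, and the CO2 phase comparison shares the *opi1*Δ arrays with them. The fit was tested on simulated data. Per-array values are given for *ATG1*, *ATG8*, *ATG9*, *ATG13*, *ATG14*, *ATG19* and *ATG32* and for the called members of largest change, up to 5 in the main comparisons and 3 in the others. Alternatives were median centring, quantile normalisation, a constant of 16 added to the linear signal, dim genes left out, only the compared groups in the fit, the t-test of the methods, a replicate block, the arrays in doubt left out, and each array left out in turn. The background level was the 95th percentile of 1746 probe sets for genes of other organisms. Tables and plots were made with Python 3.11.15 (pandas 2.3.3, matplotlib 3.10.9). No sequences were examined.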

Additional observations from a re-analysis of the deposited data

Results flagged for a closer look

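For 5 results the effect of a deletion under N-limitation differed from its effect under C-limitation in limma's test of the difference itself (N-limited effect minus C-limited effect, adjusted p below 0.01 over 5449 genes). In *ino2*Δ*ino4*Δ the difference was 2.36 for *ATG41*, -1.17 for *ATG39*, -0.95 for *ATG32* and -0.64 for *ATG26*, and none of these calls was lost when 1 array was left out. The calls of *ATG26* and *ATG32* were lost with the methods' t-test, and that of *ATG26* also with only the compared groups in the fit. In *ino4*Δ the difference was 0.92 for *ATG41*, and this call was lost in 10 of 12 fits that left 1 array out.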

How the results depend on the processing

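Of 117 calls of single genes 82 were kept whichever 1 array was left out, and none turned its direction under any alternative run. Counts of called members below are given where they moved by more than 1.5 times. Shares of all genes in the same runs are not set beside them, so these counts do not show whether all genes moved likewise. With only the compared groups in the fit, the counts were 3 for the reference N against C, 15 for *opi1*Δ maximum against minimum CO2, 11 for N against C in *ino2*Δ, 3 in *ino4*Δ and 5 in *ino2*Δ*ino4*Δ, 0 for minimum CO2 and 1 for *ino4*Δ against the C-limited reference, 2 for N-limited *ino2*Δ*ino4*Δ and 0 for the *ino4*Δ effect. The methods' t-test gave 3, 7, 3 (*opi1*Δ N against C), 2 (*ino4*Δ), 1 (*ino2*Δ*ino4*Δ), 0 for minimum CO2, C-limited *ino4*Δ, N-limited *ino2*Δ*ino4*Δ and the *ino4*Δ effect, and 2 for the *ino2*Δ*ino4*Δ effect. Without the 5 deviating arrays the counts were 11 for N against C in *ino2*Δ, 13 in *ino4*Δ and 7 in *ino2*Δ*ino4*Δ, then 2, 5 and 1 for the same strains in that order against the C-limited reference, and 1 for the effect of *opi1*Δ, 2 for that of *ino4*Δ and 7 for that of *ino2*Δ*ino4*Δ. Without the 4 mismatched arrays they were 7 for *ino2*Δ*ino4*Δ N against C, 6 for C-limited *ino4*Δ, 1 for C-limited *ino2*Δ*ino4*Δ, and 1 and 4 for the *opi1*Δ and *ino4*Δ effects. Median centring gave 7 for minimum CO2 against the reference and 1 for the *opi1*Δ effect, and quantile normalisation gave 6 for minimum CO2 and 0 for the *ino4*Δ effect. Leaving out each array gave, for N against C, 8 to 10 in the reference, 13 to 15 over 5 strains, 7 to 20 in *opi1*Δ, 4 to 6 in *ino2*Δ, 3 to 4 in *ino4*Δ and 6 to 16 in *ino2*Δ*ino4*Δ. It gave 19 to 23 between the CO2 phases. Against the C-limited reference it gave 15 to 18 at maximum CO2, 0 to 13 at minimum CO2, 0 to 3 in *ino2*Δ, 1 to 5 in *ino4*Δ and 0 to 1 in *ino2*Δ*ino4*Δ. Against the N-limited reference it gave 0 in *opi1*Δ and *ino4*Δ, 0 to 1 in *ino2*Δ and 5 to 10 in *ino2*Δ*ino4*Δ, and for the effects 0 to 12 in *opi1*Δ, 0 to 3 in *ino2*Δ, 0 to 4 in *ino4*Δ and 4 to 6 in *ino2*Δ*ino4*Δ. In 0 of 15 comparisons did every same-numbered pair of arrays correlate above 0.1 in their deviations from the group means. With 3 arrays per group this check cannot exclude pairing. Whether both CO2 phases came from the same *opi1*Δ cultures is not settled by it. With a replicate block the counts were 1 for C-limited *ino2*Δ against the reference and 1 for the *opi1*Δ effect, and no other count moved by more than 1.5 times. The cause of these shifts was not tested. Signal over background limits *ATG15*, *ATG16*, *ATG29* and, at maximum CO2, *ATG14*.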
